A study of Mus musculus with 3 samples.

Results

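Skeletal muscle genes were measured in cultures of mouse embryonic fibroblasts (MEF), which are primary cells that grow out of dissociated embryo bodies, here without heads, legs or viscera. The 38 genes, of 35451 gene names on the array, were listed by name, with earlier results of these data known. They were 7 myogenic factors, 10 genes of the thin filament, 10 of the thick filament and 4 of the Z-disc and the desmin network. The others were 4 of energy supply and calcium storage, and 3 of the neuromuscular junction. All cells were C57BL/6 MEF in DMEM with heat-inactivated fetal bovine serum. The control was labelled as untreated, whereas the study's text names DMSO, the solvent of BP, as the control. The other cultures received n-butylidenephthalide (BP), a compound from Angelica sinensis, at 10 µg/ml (BP10) or 40 µg/ml (BP40), for a time that is not given in the sources used here. Each condition was hybridized to 1 array, so 3 arrays were compared, no p-value exists, and each ratio compares 2 arrays rather than 2 tested conditions. Whether the cells of the 3 cultures came from the same embryos is not given in the sources used here.

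Skeletal muscle forms in steps. Progenitors that carry the transcription factors Pax3 and Pax7 switch on Myf5 and Myod1 and become myoblasts, and Myog, Myf6 and Mef2c then drive fusion and the genes of the sarcomere, the contractile unit in which actin and myosin filaments slide past each other. Calcium released from stores, where calsequestrin holds it, starts contraction through the troponins on the thin filament. The nerve signal reaches the fibre through the acetylcholine receptor, whose fetal form holds the subunit encoded by Chrng. Fibroblasts do not build sarcomeres, so these genes are usually faint in MEF cultures. In bulk RNA, fewer muscle cells and less RNA per muscle cell cannot be told apart.

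Signal is given as a percentage of the 75th percentile of all gene spots on the same array, and compares arrays for 1 gene, never 1 gene with another. Of 59305 gene spots, the share well above background was 81.7% for the control, 68.3% for BP10 and 69.1% for BP40. All 11 fibroblast markers and all 10 smooth muscle markers were above background on every array. The 3 arrays shared 1 slide, but the control was scanned in a session of its own, and the scanner software applied its correction for uneven brightness over the array to BP10 and BP40 only. Treatment, scan session and this correction cannot be told apart in a ratio to the control. BP40 and BP10 had the same scan and the same correction. A gene was called higher or lower at 2-fold or more where its probe rose above background on 1 or both of the arrays compared. Where it did so on 1 array only, the ratio could be bounded but not measured, and is written as "at least". The spread given beside ratios is the SD between log2 ratios from 2 probes of the same gene. Its median was 0.29 for BP10 against control, 0.22 for BP40 against control and 0.21 for BP40 against BP10. It was taken over 4731 genes with 2 probes above background on every array, and does not measure the spread between cultures or arrays. Probes of some members, such as Ldb3 and Musk, differed by more.

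Of the 38 muscle genes, the control array showed 34 above background, BP10 showed 29 and BP40 27, and 25 passed on all 3. These were 89.5%, 76.3% and 71.1% of the members by array, beside 85.3%, 73.6% and 74.6% of all genes. Myf5, Myh1, Ttn and Casq1 were above background on none. Ttn, the giant spring of the sarcomere, was dim with each of its 4 probes, whose signals ran from 0.538% to 2.69%. The clearest change lay between the doses. Actc1, Tnnt2, Casq2 and Chrng were lower on BP40 than on BP10, Neb and Chrna1 stood at the threshold, and 0 members were called higher.

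Upstream sequences of Actc1, Tnnt2, Casq2, Chrng and Chrna1 are shown because these genes were picked for lying lower on BP40 than on BP10. Neb had no upstream sequence at hand. Other members, such as Myod1, Mef2c and Myl1, were also lowest on BP40 and are not shown. Each is the 250 bases before the RefSeq transcription start in GRCm38.p6, written 5′ to 3′ on the strand of the gene. Capitals mark CAGCTG, an E-box of the kind that proteins of the MyoD family bind, in Chrng, Chrna1 and Tnnt2, a CArG box, to which serum response factor binds, in Actc1, and a MEF2 motif in Casq2.
Chrng, chr1:87205561-87205810, plus strand: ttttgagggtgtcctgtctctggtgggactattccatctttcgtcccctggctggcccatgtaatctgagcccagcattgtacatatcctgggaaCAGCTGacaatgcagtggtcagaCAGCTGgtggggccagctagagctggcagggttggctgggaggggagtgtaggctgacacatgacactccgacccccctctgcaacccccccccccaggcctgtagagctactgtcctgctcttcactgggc
Chrna1, chr2:73580339-73580588, minus strand: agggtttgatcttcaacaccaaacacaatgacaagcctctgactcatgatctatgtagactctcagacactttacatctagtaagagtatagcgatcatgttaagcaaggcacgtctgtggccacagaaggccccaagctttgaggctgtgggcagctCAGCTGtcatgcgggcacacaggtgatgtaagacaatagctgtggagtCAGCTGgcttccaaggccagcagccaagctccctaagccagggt
Tnnt2, chr1:135836084-135836333, plus strand: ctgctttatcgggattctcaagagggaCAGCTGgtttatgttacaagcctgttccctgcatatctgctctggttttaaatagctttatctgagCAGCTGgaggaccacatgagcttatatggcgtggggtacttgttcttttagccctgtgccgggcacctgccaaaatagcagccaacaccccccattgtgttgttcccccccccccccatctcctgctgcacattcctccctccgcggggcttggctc
Actc1, chr2:114052876-114053125, minus strand: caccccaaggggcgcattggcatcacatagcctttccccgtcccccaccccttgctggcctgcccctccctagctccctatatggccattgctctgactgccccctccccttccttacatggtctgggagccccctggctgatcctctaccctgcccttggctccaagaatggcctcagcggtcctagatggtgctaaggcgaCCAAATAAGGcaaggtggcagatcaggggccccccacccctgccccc
Casq2, chr3:102086165-102086414, plus strand: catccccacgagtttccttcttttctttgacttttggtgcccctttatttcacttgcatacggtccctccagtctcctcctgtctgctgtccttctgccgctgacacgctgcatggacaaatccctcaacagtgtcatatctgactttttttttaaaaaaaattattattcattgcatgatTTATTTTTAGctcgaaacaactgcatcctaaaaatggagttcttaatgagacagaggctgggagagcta

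Both strands were searched. CAGCTG began 155 and 132 bases before the start of Chrng, 92 and 44 before that of Chrna1, and 223 and 157 before the upstream of the 2 Tnnt2 starts. The CArG box of Actc1 began 47 bases before its start, and the MEF2 motif of Casq2 began 69 bases before. Windows were at hand for 31 of the 38 members, 39 in all, and not for Pax3, Myod1, Myf6, Tnnt3, Tnni2, Neb and Actn3. CAGCTG stood in 15 of the 39 member windows (38.5%), against 13.0% of 32851 windows of all genes. These windows belonged to 13 members, since overlapping windows of Mb and of Tnni1 hold the same site. The looser E-box CANNTG, which contains CAGCTG, stood in 30 member windows (76.9%) and in 66.2% of all. A MEF2 motif was found in 4 member windows against 2.92% of all. A CArG box was found in 4, those of Acta1, Actc1 and both Ldb3 starts, whose windows overlap and share the site, against 1.47% of all. These are matches of letters, with no test. Actc1, Casq2 and the downstream Tnnt2 start held no CAGCTG in this window. CAGCTG also stood upstream of Mb, Mybpc1 and Acta1, which were higher on BP40 than on BP10, and of Des and Tnni1, which were lower, all without a call. A link between motif and fall was not tested.

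**Figure D1:**
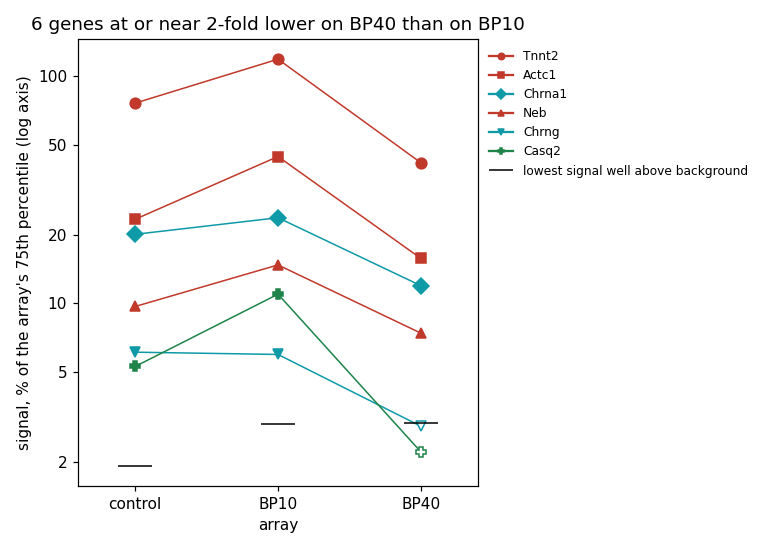
Signal of 6 muscle genes on the control, BP10 and BP40 arrays, in percent of each array's 75th percentile on a log axis, with 1 array per point. Open markers were not well above background, and black bars show the lowest signal that was; all 6 genes were lower on BP40 than on the other arrays.

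Actc1, the cardiac alpha-actin that embryonic skeletal muscle also uses, gave a signal of 23.4% for the control, 44.3% for BP10 and 15.8% for BP40. It was highest on BP10 and lowest on BP40, which lay 2.81-fold under BP10 (log2 ratio -1.49, SD between 2 probes 0.21). The log2 ratios to the control were 0.92 at BP10 and -0.57 at BP40, neither of which reached 2-fold. Its probe lay at chr2:113873064-113873123 in mm9, the build of the array's annotation. Tnnt2, the troponin T of heart and embryonic skeletal muscle that ties the troponin complex to tropomyosin, gave 76.1%, 119% and 41.6%. Again BP10 was the highest array and BP40 the lowest, 2.86-fold below BP10 (log2 ratio -1.52). Against the control the log2 ratio was 0.64 at BP10 and -0.87 at BP40.

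Casq2, the calsequestrin that holds calcium in the stores of heart and slow or fetal muscle, gave 5.26% for the control, 11.0% for BP10 and 2.21% for BP40. The BP10 array was high, 2.08-fold over the control, and the BP40 array was not above background, at least 3.71-fold below BP10. Casq2 was the 1 member called higher on BP10 than on the control, which is 2.63% of the members and the same as the 2.63% of all genes called higher there. Chrng, the fetal subunit of the acetylcholine receptor, gave 6.08%, 5.95% and 2.87%. Control and BP10 were nearly equal, and BP40 fell below background, at least 2.01-fold under BP10 and at least 2.06-fold under the control.

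Chrna1, the subunit of the same receptor that binds acetylcholine, gave 20.1%, 23.8% and 11.9%. BP40 was the lowest array at 1.99-fold below BP10, just short of a call, and a second Chrna1 probe was above background on none. Neb, which encodes the ruler protein nebulin along the thin filament, gave 9.67%, 14.7% and 7.38%, and BP40 was 2.00-fold below BP10, just under the threshold. A second Neb probe gave 5.56%, 6.00% and 2.51%, also lowest on BP40, where it was not above background. The remaining Neb probe passed background only on the control array, at 2.35%. Musk, the kinase that gathers receptors at the junction, gave 3.73%, 2.38% and 4.47% with the probe used and 5.63%, 3.05% and 1.71% with another. Its probes had opposite directions at BP40, so Musk has no settled direction there.

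For BP40 against BP10, 4 of 38 members were called lower against 1.76% of all genes, and 0 were called higher against 1.89%. Actc1 and Tnnt2 were measured on both arrays, and Casq2 and Chrng were bounds. The median log2 ratio of the members was 0.05, beside 0.07 for all genes, so the fall touched a few members and not the list. With 19 ratios above 0 and 19 below, the list had no common direction. Of the genes in the same brightness class as Actc1, 1 of 20 such classes, 2.14% were called lower, and of those in the class of Tnnt2, 1.52%. In the fainter class that holds Casq2 and Chrng the share was 4.74%. Of 7 other scalings, background or detrending corrections and probe rules, 5 could alter this ratio for genes with 1 probe, and Actc1 and Tnnt2 stayed called under all 5, with log2 ratios from -1.58 to -1.18 and from -1.60 to -1.44. Casq2 was called under 4 of the 5 and Chrng under 2 of the 5.

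Tnnt2 and Tnnt3 encode related troponin T proteins, so the probes are shown to let the reader judge how far they can be told apart. Capitals mark bases shared in the best alignment without gaps, and the probes lay in mm9 on the plus strand.
Tnnt2, chr1:137747976-137748288: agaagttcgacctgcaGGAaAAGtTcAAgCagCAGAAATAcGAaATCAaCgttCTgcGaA
Tnnt3, chr7:149698500-149700262: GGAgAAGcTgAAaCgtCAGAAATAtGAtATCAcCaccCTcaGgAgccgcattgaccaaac

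The probes overlapped over 44 bases, of which 29 (65.9%) were identical. Tnnt3, the fast-muscle troponin T, gave 12.3%, 8.06% and 12.5%, lowest on BP10, while Tnnt2 was highest there. A second Tnnt3 probe gave 6.84%, 6.66% and 6.43%, nearly level over the arrays. Tnnt1, the slow-muscle form, gave 62.0%, 45.2% and 61.6%, also lowest on BP10.

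**Figure D2:**
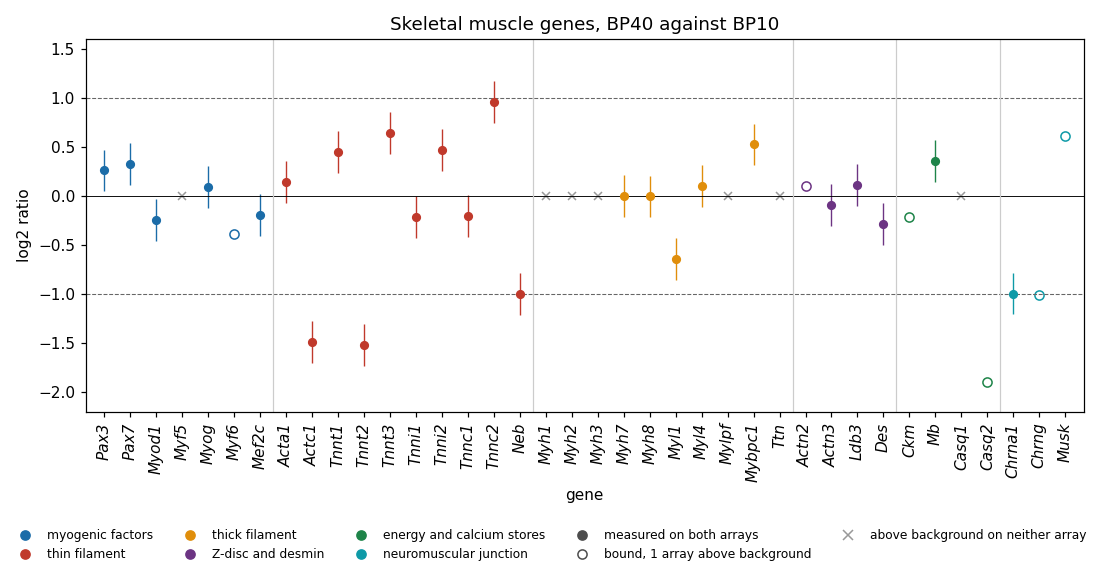
Log2 ratio of BP40 to BP10 for each of the 38 genes, grouped by role, from 1 array per dose. Bars show the median SD between ratios from 2 probes of a gene (0.21), not the spread between cultures or arrays. Open circles are bounds, crosses are genes above background on neither array, and dashed lines mark 2-fold. Actc1 and Tnnt2 lie below the lower line with their bars.

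Genes that heart, smooth muscle and other cells express were looked at beside this fall, since Actc1, Tnnt2 and Casq2 are active in heart too. Of 10 cardiac genes, 9 passed background for the control, 7 for BP10 and 8 for BP40, and their summed signal was 184%, 167% and 165%. Hcn4 was above background on none, and 0 of the 10 were called between BP40 and BP10. Between the doses 5 of the 10 ratios were above 0 and 5 below. Myh6, the cardiac myosin, gave 9.41%, 8.80% and 5.16%. Myl7, an atrial light chain, went the other way between the doses with 6.45%, 1.70% and 4.36%. On BP10 Myl7 was below background and called lower than the control. Of 10 smooth muscle genes, Myh11, the smooth muscle myosin, was called lower on BP40 than on BP10, with 43.0%, 62.9% and 24.8%, the order seen for Tnnt2. Of the smooth muscle ratios between the doses, 6 were above 0 and 4 below. The summed signal of the smooth muscle list was 81432%, 82490% and 87130%, most of it from Acta2, Tagln, Cnn1 and Actg2. Emcn, an endothelial gene, gave 7.74%, 13.8% and 3.63%, and was the 1 of 6 endothelial genes called. The endothelial list summed to 830%, 663% and 846%, of which Kdr alone gave 799%, 618% and 815%. Of 6 neural and neural crest genes, 2 were called lower on BP40 than on BP10. Elavl3, which encodes a neuronal RNA-binding protein, gave 2.39%, 39.4% and 0.836%, the last below background, and was highest on BP10 like Casq2. Stmn2, a neuronal regulator of microtubules, gave 41.2%, 33.3% and 12.1%. The neural list summed to 965%, 648% and 775%, of which Tubb3 alone gave 883%, 534% and 712%. Such sums follow the brightest probes of a list and do not speak for its other genes. Of 5 cartilage genes, Comp was called higher on BP40 than on BP10, with 16.3%, 12.9% and 35.1%. Of the cartilage ratios between the doses, 4 were above 0 and 1 below. Among 6 macrophage, 11 fibroblast and 6 epithelial genes, 0 were called between the doses. Their ratios above 0 numbered 5, 5 and 2, and those below 0 numbered 1, 6 and 4. Of the 64 other muscle genes listed, 1 was called lower on BP40 than on BP10 (1.6%, beside 1.76% of all genes). Likewise 1 was called higher (1.6%, beside 1.89%), so this longer list was near the share of all genes both ways. The lower gene was Chrnb1, another subunit of the acetylcholine receptor, with 9.09%, 12.7% and 6.00%. The higher gene was Cox6a2, a muscle subunit of cytochrome oxidase, with 76.8%, 48.7% and 181%. The part of these other cell types in the muscle values was not tested.

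Of the 7 myogenic factors, 0 were called between the doses. Myod1, which commits cells to muscle, gave a mean signal of 20.2% for the control, 15.2% for BP10 and 12.9% for BP40. Its log2 ratios were -0.41 for BP10 and -0.65 for BP40 against the control, and -0.24 between the doses. Myog, which drives myoblasts into differentiation, gave 9.43%, 7.15% and 7.62%, with log2 ratios of -0.40, -0.31 and 0.09 in the same order.

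Myod1, Myog and Des are each printed at 10 places on the array, and these spots show how far readings of 1 probe vary within an array. The 10 Myod1 spots ran from 6.80% to 35.7% on the control array, from 11.5% to 18.2% on BP10 and from 9.55% to 15.6% on BP40. The control spots spanned the spots of both treated arrays, so Myod1 on BP10 and BP40 lay inside the spread of the control array. The Myog spots likewise ran from 4.03% to 23.2% on the control array, and from 4.66% to 10.6% and from 6.35% to 9.40% on BP10 and BP40. The log2 SD between spots was 0.81 for Myod1 and 0.93 for Myog on the control array, against 0.22 and 0.39 on BP10 and 0.26 and 0.19 on BP40. Beside them, 113 probes were printed 10 times with a control median between 5% and 40%. Their median SD was 0.29 on the control array and 0.17 on both treated arrays. A control SD at least as large as that of Myod1 was found for 19, and as that of Myog for 13. On the control array both genes thus spread more than most such probes. Spots of 1 array repeat the reading and are not replicate cultures.

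**Figure D3:**
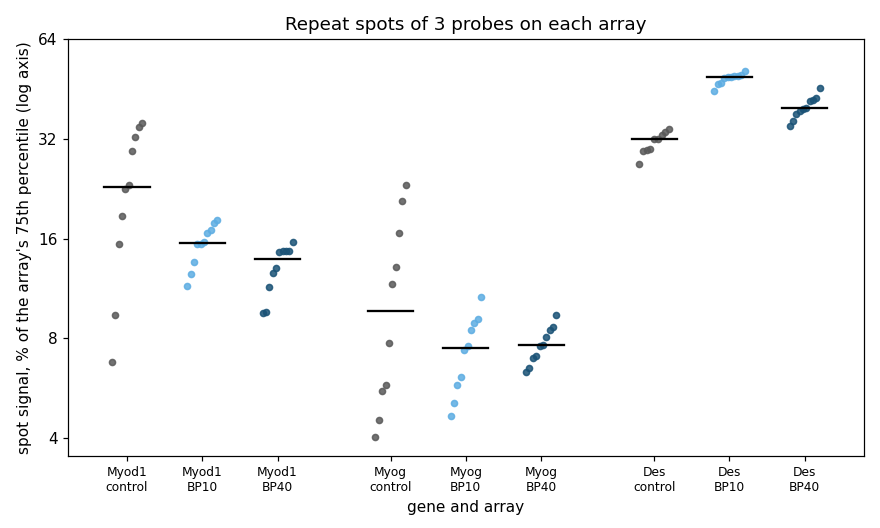
Signal of each repeat spot of the Myod1, Myog and Des probes on the 3 arrays, in percent of the 75th percentile on a log axis, with black lines at the medians. The control spots of Myod1 and Myog cover the range of the treated arrays, while the Des spots of the control array lie below those of BP10 and BP40.

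Des, which encodes the intermediate filament desmin that links Z-discs, gave tight spots. They ran from 26.9% to 34.3% over 9 spots on the control array, from 44.6% to 51.2% on BP10 and from 35.0% to 45.4% on BP40. The control spots overlapped with neither treated array, yet the log2 ratios of the means, 0.64 and 0.35, were under 2-fold. Des is expressed in smooth muscle too.

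Among the other factors, Pax7, the marker of muscle progenitors, gave 23.5% for the control, 9.27% for BP10 and 11.6% for BP40. The control was the high array, and Pax7 was called lower at both doses, 2.54-fold at BP10 and 2.03-fold at BP40. With the median of genes of like brightness subtracted, its log2 ratios were -0.93 and -0.64, short of a call. Pax3, its relative in the embryo, stayed near the control with 24.8%, 21.4% and 25.6%. A second Pax3 probe gave 4.72%, 3.43% and 2.83%. Myf6, which acts late in differentiation, gave 6.89%, 3.86% and 2.28% and was called lower at BP40 as a bound of at least 2.33-fold. Mef2c, a partner of the myogenic factors, gave 6.91%, 4.50% and 3.94%, also highest on the control array but not called. Myf5 stayed below background with all of its spots. Myf5 and Myf6 were neighbours on chromosome 10, with probes at chr10:106919974-106920033 and chr10:106930237-106930296 in mm9.

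Against the control, 7 of 38 members (18.4%) were called lower at BP10, where 10.6% of all genes were. At BP40 these numbers were 6 members (15.8%) and 9.19% of all genes, and 0 members were called higher against 2.55% of all genes. Called lower at BP10 were Pax7, Tnnc2, Myh2, Myh8, Mybpc1, Ldb3 and Mb, and at BP40 Pax7, Myf6, Myh2, Myh8, Myl1 and Chrng. Both comparisons share the control array. The fibroblast markers were lower too, with 11 of 11 ratios below 0 and a median log2 ratio of -0.72 at BP10, and 9 of 11 and -0.67 at BP40, beside -0.43 and -0.38 for the muscle genes. Of the 11, 2 were called lower at BP10 and 3 at BP40, and their part in the muscle values was not tested. Faint genes as a whole were lower on BP10 and BP40 than on the control: in the brightness class of genes with a median signal near 5.43%, 33.5% were called lower at BP10 and 29.1% at BP40, against 3.27% and 1.69% in the class near 143%. Of the 14 calls of members against the control, higher and lower, 0 were kept under all of these 7 alternatives.

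**Figure D4:**
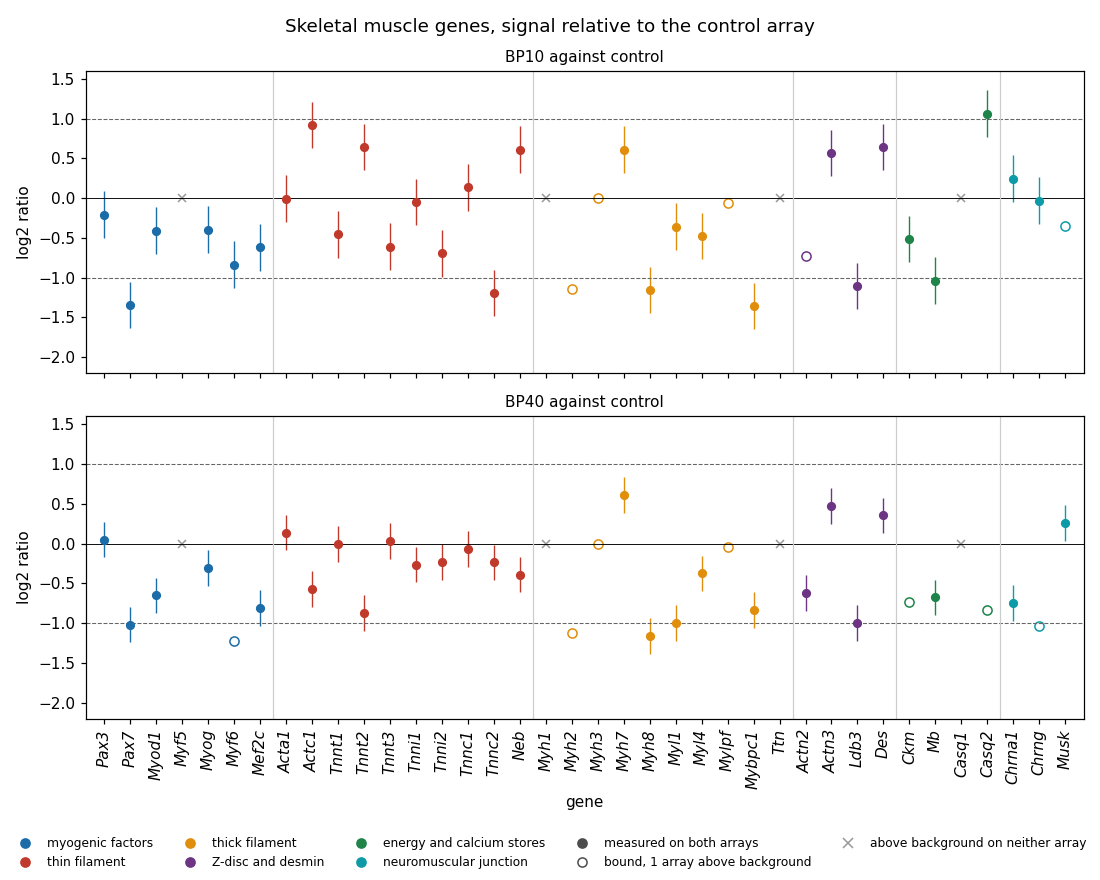
Log2 ratio of BP10 and of BP40 to the control array for each of the 38 genes, by role, with 1 array per condition. Bars show the median SD between ratios from 2 probes of a gene (0.29 and 0.22), not the spread between cultures or arrays. Open circles are bounds, crosses are genes above background on neither array, and dashed lines mark 2-fold. Called were 7 genes lower and 1 higher at BP10, and 6 lower at BP40.

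The myogenic factors and the sarcomere genes were set side by side. With dim probes taken at their bounds, the median log2 ratio to the control at BP10 was -0.41 over the 7 factors and -0.21 over the 24 sarcomere genes, beside -0.18 for all genes. At BP40 these medians were -0.65 and -0.23, beside -0.08 for all genes. With dim probes at their measured values, the medians were -0.41, -0.46 and -0.24 at BP10 and -0.65, -0.25 and -0.12 at BP40. Between the doses the factors stood at -0.02 and the sarcomere genes at 0.10 either way. With the median of genes of like brightness subtracted, the factors stood at 0.04 and the sarcomere genes at -0.09 at BP10, and at -0.25 and 0.04 at BP40. The factors were thus below the sarcomere genes at BP40 in each of these versions, while their order at BP10 turned with the treatment of dim and faint probes. The factor medians of -0.41 and -0.65 were the ratios of 1 gene, Myod1, whose control spots spanned the spots of both treated arrays. With normexp background correction the BP40 medians were closer, at -0.078 for the factors and -0.011 for the sarcomere genes. Neither gap was tested, with 1 array per condition.

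**Figure D5:**
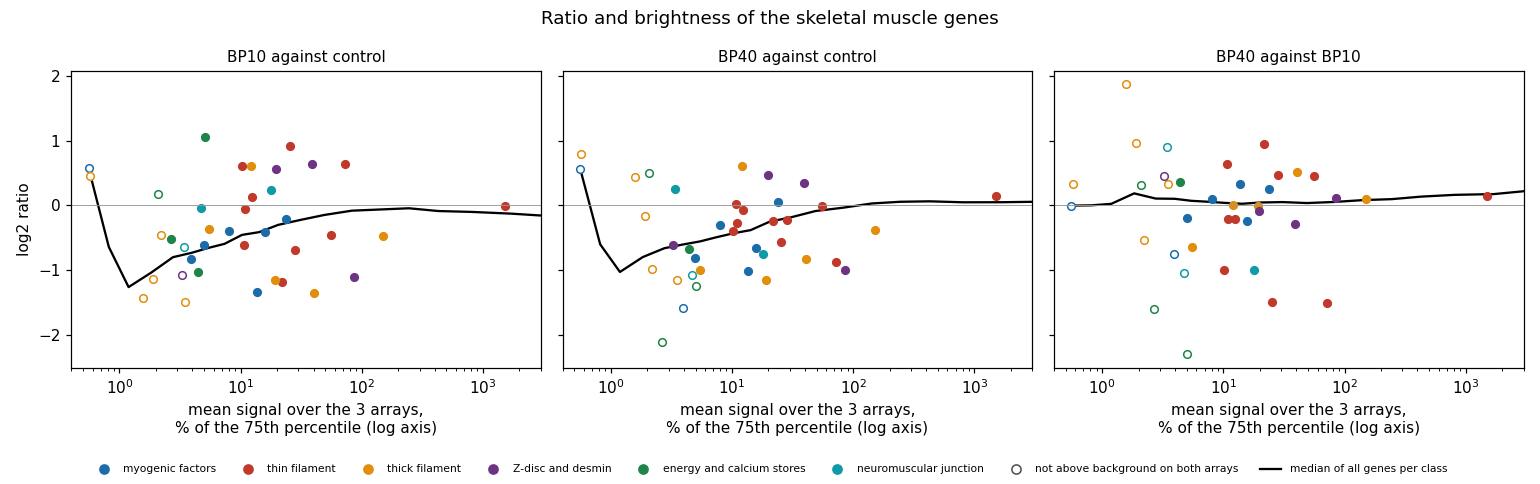
Log2 ratio of each muscle gene in the 3 comparisons against its mean signal over the arrays, in percent of the 75th percentile on a log axis. The black line joins the medians of all genes in 20 brightness classes; it lies below 0 for faint genes, except the faintest class, in both comparisons with the control and shows no such dip for BP40 against BP10.

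On the thin filament, all 10 genes were above background on every array. Acta1, the actin of adult skeletal muscle, gave 1463%, 1456% and 1609.6% and was level over the arrays. The actins are alike, and whether the probes of Acta1 and Actc1 also read other actins was not tested. Acta2, the smooth muscle actin, had log2 ratios of -0.09 and 0.13 to the control. Tnnc2, the calcium sensor of fast muscle, gave 30.4%, 13.3% and 25.8% and was low on BP10 alone, 2.29-fold below the control. Tnni2, the inhibitory troponin of fast muscle, gave 35.1%, 21.7% and 30.0%, also lowest on BP10 but not called. The slow-muscle partners moved less, with 12.2%, 13.4% and 11.6% for Tnnc1 and 11.8%, 11.4% and 9.81% for Tnni1.

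On the thick filament, 8 of 10 genes were above background on the control array and 5 on each treated array. Myh8, the perinatal myosin, gave 32.7% for the control, 14.7% for BP10 and 14.6% for BP40. With this probe it was 2.23-fold lower at BP10 and 2.24-fold lower at BP40, and the treated arrays were equal. Other Myh8 probes gave 6.15%, 1.29% and 3.21%, and 3.49%, 1.29% and 3.46%. Both put BP40 above BP10, which was below background, and the latter put the control and BP40 level. The probes disagreed, so for Myh8 the order of the doses and the fall at BP40 are not settled. Myh2, a fast adult myosin, gave 6.47%, 2.30% and 2.90% and was lower by at least 2.21-fold at BP10 and 2.19-fold at BP40. Myh3, the embryonic myosin, gave 2.57% on the control array and was below background on the others, which gave no usable bound. Myh7, the slow myosin of muscle and heart, went the other way with 9.12%, 13.9% and 13.9%, a log2 ratio of 0.61 at both doses. The genes Myh1, Myh2, Myh3 and Myh8 lay together on chromosome 11, with their 8 probes between 66915107 and 67121984 in mm9, and hybridization of one with the probe of another was not tested.

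Among the light chains, Myl4, the embryonic and atrial form, gave 183%, 132% and 141%, highest on the control array and not called. Myl1, the fast-muscle form, gave 7.48%, 5.84% and 3.74% and was lower at BP40 by 2.00-fold, at the threshold. Mylpf, the fast regulatory chain, passed background only on the control array, at 3.06%. Mybpc1, which encodes the slow-muscle myosin-binding protein C, gave 67.2%, 26.2% and 37.7%. It was high on the control array, 2.56-fold over BP10 and 1.78-fold over BP40, and its second probe was dim on all arrays.

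At the Z-disc, Ldb3, which binds alpha-actinin, gave 140%, 64.8% and 69.9%, 2.15-fold lower at BP10 and 2.00-fold lower at BP40, just short of a call there. A second Ldb3 probe gave 36.1%, 64.4% and 42.7%, so that it was highest on BP10 where the first was lowest. The probes disagreed, and Ldb3 has no settled direction. Actn3, the alpha-actinin of fast fibres, gave 15.5%, 23.0% and 21.6%, lowest on the control array. Actn2, its partner in all fibres, gave 4.83%, 2.30% and 3.14%, and neither was called.

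The remaining genes supply energy. Ckm, the muscle creatine kinase, gave 4.90%, 3.43% and 1.13%, the last below background, at least 1.66-fold under the control and not called. Mb, which encodes the oxygen store myoglobin, gave 6.58%, 3.21% and 4.11% and was called lower at BP10 by 2.05-fold, a call lost under all 6 alternatives that could alter it.

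Of 64 further muscle genes listed, 53 were above background on the control array and 45 on each treated array. At BP10, 2 were called higher (3.1%, beside 2.63% of all genes) and 7 lower (10.9%, beside 10.6%) than the control. At BP40, 2 were called higher (3.1%, beside 2.55%) and 10 lower (15.6%, beside 9.19%). The median log2 ratio, dim probes included, was -0.51 at BP10 and -0.41 at BP40, and -0.07 between the doses. Among those lower at both doses was Cacng1, a subunit of the muscle calcium channel, with signals of 9.02% for the control, 3.06% for BP10 and 2.67% for BP40, the latter 2 below background. Ryr1, the channel that releases stored calcium, gave 9.72%, 6.02% and 3.84% and was called lower at BP40. Atp2a1, the pump that refills the stores in fast fibres, gave 13.0%, 29.7% and 16.5%, and was called higher at BP10. Mymk, which is needed for myoblasts to fuse, was level with 41.3%, 40.0% and 46.9%, and Mymx, its partner, was above background on no array.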

How the data were processed

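RNA of the control, BP10 and BP40 cultures, labeled with Cy3, was read on 3 Agilent mouse arrays, 1 per condition. The authors deposited the scanner output, whose intensity per spot was background-subtracted by Feature Extraction 10.5.1.1, with no scaling from array to array. In the series table, 100% of the deposited intensity values equal those of the scanner (relative tolerance 0.0001), and 0 columns were unmapped. Per the file headers, detrending was applied to BP10 and BP40 and not to the control.

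Here the log2 intensity minus the array's 75th percentile over gene spots was taken, spots flagged as outliers were dropped and spots of a probe averaged. A complete set of values was found for 55126 of 55681 probes, and 26425 (47.5%) were named through their RefSeq accession, as were 35 of the 38 members. A gene was read from its probe above background on most arrays, then the brightest. The 38 members had 55 probes, and 12 had more than 1. A bound used the dim probe's signal or, if higher, the least signal above background on that array, which was 1.93% on the control, 2.93% on BP10 and 2.96% on BP40. The number of arrays limits the precision. The members, lists and tests were chosen with earlier results of these data known. Named are all members, and of the other lists up to 5 called genes with the largest ratio. Those named without a call (Myh6, Hcn4, Acta2, Tagln, Cnn1, Actg2, Kdr, Tubb3, Mymk and Mymx) were chosen after their values were seen, as were the detrending alternatives. Upstream sequences came from RefSeq (GRCm38.p6), and probe sequences and mm9 positions from the scanner files, without exon annotation. Python 3.11.15, numpy 2.4.6, pandas 2.3.3, matplotlib 3.10.9, R 4.3.3 and limma 3.58.1 (quantile and normexp, offset 50) were used.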

Additional observations from a re-analysis of the deposited data

Results flagged for a closer look

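Actc1, Tnnt2 and Casq2 stood above the control on BP10 and below it on BP40. The log2 ratio of BP40 to BP10 was -1.49 for Actc1, -1.52 for Tnnt2 and, as a bound, -1.89 for Casq2. With 1 array per condition the difference between the doses was not tested.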

How the results depend on the processing

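No paired analysis was possible because 1 array stands for each condition, and leaving out an array was not run, since it would leave a condition empty. The series table gave the same values as the scanner files, and with a 75th percentile taken over probes detected on every array, 6 members were called lower at BP10, 7 at BP40 and 6 between the doses. Medians over the members, the myogenic factors and the sarcomere genes moved toward 0 against the control under the next 3 alternatives. With quantile normalization the members stood at 0.0067 for BP10 and -0.076 for BP40, the factors at -0.34 for BP40, and the sarcomere genes at -0.14 and -0.0048. With normexp background correction the members stood at -0.060 and -0.039, the factors at -0.078 for BP40, and the sarcomere genes at -0.060 and -0.011. With the median at like brightness subtracted the members stood at 0.071 and -0.014, the factors at 0.039 and -0.25, and the sarcomere genes at -0.086 and 0.042. The cause was not tested. The counts of members called under the alternatives stand without the share of all genes called under the same setting. They show how the counts move and not whether members differ from other genes. Members called higher at BP10 numbered 2 with quantile normalization, 0 with normexp, 4 at like brightness, 6 at 1.5-fold and 0 at 3-fold. Members called lower at BP10 then numbered 3, 2, 2, 12 and 0, and 3 with detrending applied to the control, an alternative chosen after seeing the data. At BP40, 1 was called higher at like brightness and 1 at 1.5-fold. Called lower at BP40 were 0 with quantile normalization, 0 with normexp and 0 at like brightness, 3 with both arrays above background, 16 at 1.5-fold and 0 at 3-fold. Between BP40 and BP10, 1 was called higher with the median of all probes, 1 without the filter for dim probes and 3 at 1.5-fold. Called lower there were 2 with normexp, 2 with both arrays above background, 7 at 1.5-fold and 1 at 3-fold. Of 792 values of single members under these alternatives, 623 moved by less than the SD between 2 probes and 169 by more, and no called value changed sign. This total includes the series table and the 75th percentile over detected probes, each with all 99 values moved by less. With quantile normalization 42 moved by more and 57 by less. These numbers were 40 and 59 with normexp, and 50 and 49 at like brightness. Below about 3% of the 75th percentile, a signal on BP10 or BP40 gave a bound only.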
